A study of Mus musculus with 8 samples.

Results

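The INK4 family consists of 4 mouse genes, Cdkn2a, Cdkn2b, Cdkn2c and Cdkn2d. All 4 were found by symbol among the 54418 Ensembl genes quantified in this RNA sequencing study, and all 4 were among the 16011 genes with enough counts to be tested. The libraries were made from melanocyte stem cells of mouse dorsal skin at postnatal day 21, sorted as DAPI-negative, non-autofluorescent cells carrying Dct-driven GFP, and there were 4 control and 4 Bmi1-deleted libraries. Control mice were Bmi1fl/fl, Dct-rtTA, TRE-H2B-GFP. Bmi1-deleted mice carried the same alleles and, in addition, Tyrosinase-Cre, which expresses Cre recombinase under the promoter of a pigment cell gene. The floxed Bmi1 allele, the reporter, the doxycycline feed that drives it and the mixed C57Bl-6;129Sv background were therefore shared by both groups, whereas the Cre transgene was present only in the Bmi1-deleted group. The labels do not say whether replicates were separate animals. Sex inferred from Xist and Y-linked counts was female in control replicates 1 and 3 and Bmi1-deleted replicate 1, and male in the others. The libraries of a group thus did not all come from a single animal. Each p-value still reflects the spread between libraries, which may be technical in part.

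INK4 proteins are small ankyrin-repeat proteins that bind the cyclin-dependent kinases CDK4 and CDK6 and keep them from pairing with D-type cyclins. The retinoblastoma protein then stays underphosphorylated and E2F factors are held back from the genes of DNA replication. Cdkn2a is unusual in that it has a pair of promoters and first exons spliced to a shared second exon that is read in different frames: one product is the CDK inhibitor p16 (INK4A), the other is ARF, which binds MDM2 and stabilises p53. BMI1 is a subunit of Polycomb repressive complex 1, and repression of the Ink4a/Arf locus is its best-known role in stem cells.

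In mm10 all 4 genes lie on the minus strand. Cdkn2a (ENSMUSG00000044303) spans chr4:89274471-89294653 and Cdkn2b (ENSMUSG00000073802), which encodes p15, spans chr4:89306299-89311039, so that 11646 bases separate them. Cdkn2c (ENSMUSG00000028551), which encodes p18, spans chr4:109660876-109667189, 20.3 Mb from Cdkn2b on the same chromosome. Cdkn2d (ENSMUSG00000096472), which encodes the INK4 protein p19, lies on another chromosome at chr9:21288410-21291407. No other annotated gene overlaps any of the 4. The GENCODE annotation gives Cdkn2a a transcript of 852 bases from the Ink4a start and one of 895 bases from the Arf start, each with 3 exons, and the starts are 12461 bases apart.

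The sequences just upstream of the starts of the neighbouring genes Cdkn2a and Cdkn2b are shown because the transcripts of the locus divided by start site in these libraries. They are RefSeq promoter sequences of build GRCm38.p6, minus strand, read 5′ to 3′ and ending at the base before the GENCODE start, with each CG dinucleotide in capitals. The Ink4a stretch lies at chr4:89282193-89282442, the Arf stretch at chr4:89294654-89294869 and the Cdkn2b stretch at chr4:89311040-89311282.
Cdkn2a, Ink4a start: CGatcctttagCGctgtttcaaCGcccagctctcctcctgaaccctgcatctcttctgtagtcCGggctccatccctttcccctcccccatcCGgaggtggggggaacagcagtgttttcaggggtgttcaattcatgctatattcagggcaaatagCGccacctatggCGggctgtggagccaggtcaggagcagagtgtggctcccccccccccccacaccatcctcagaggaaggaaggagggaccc
Cdkn2a, Arf start: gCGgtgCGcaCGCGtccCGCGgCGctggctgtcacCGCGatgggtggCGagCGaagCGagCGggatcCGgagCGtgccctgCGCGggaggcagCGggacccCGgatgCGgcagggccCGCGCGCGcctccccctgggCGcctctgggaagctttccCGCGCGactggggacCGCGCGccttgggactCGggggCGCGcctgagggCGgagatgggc
Cdkn2b: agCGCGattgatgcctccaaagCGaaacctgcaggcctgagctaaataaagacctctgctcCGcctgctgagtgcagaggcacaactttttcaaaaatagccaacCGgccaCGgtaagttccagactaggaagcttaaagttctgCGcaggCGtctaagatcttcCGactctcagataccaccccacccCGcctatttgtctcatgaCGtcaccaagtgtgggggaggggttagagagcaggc
In the full RefSeq windows of 250 bases before each start, the Arf promoter held 40 CG dinucleotides, more than 98.7% of 32851 such windows. The Ink4a promoter held 7, close to the median of 6 over all windows, and the Cdkn2b promoter held 12. For the other genes the windows held 6 and 29 at the 2 RefSeq starts of Cdkn2c and 16 at Cdkn2d. The Cdkn2c start with 29 lies 433 bases inside the long GENCODE transcript, so its window is not the sequence before that transcript. The Cdkn2c window with 6 also lies within the long transcript. Only 52 bases of the Cdkn2d window precede all annotated starts of that gene. The E2F motif TTTCCCGC or TTTGGCGC was searched on both strands and was present in 1 of the 6 windows, that of Arf, against 1.30% of all windows. The GC box GGGCGG, also on both strands, was present in 3 of the 6, those of Arf, Cdkn2d and the Cdkn2c start with 29 CG, against 32.7% of all windows. TATAAA was in 0 of the 6, against 12.4% of all windows. These are matches of letters and show no binding.

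Library totals ranged from 8882656 to 10368174 counts. Levels are given as TMM-scaled CPM, the number of counts of a gene relative to the library total, and changes as log2 Bmi1-deleted over control. A gene was called at an adjusted p under 0.05 in edgeR's quasi-likelihood test over all 16011 tested genes, where the median log2 change was 0.01. The targeted gene, Bmi1, was at 84.6, 76.5, 75.4 and 97.2 CPM in the control libraries and at 69.2, 70.8, 69.6 and 68.8 CPM in the Bmi1-deleted ones. The groups did not overlap, but the log2 change of −0.26 did not pass in edgeR's test (adjusted p = 0.607). The whole-gene count includes reads from outside a floxed region, so it is a weak check of the labels. The pigment cell genes Dct, Mitf, Sox10 and Kit were detected in both groups, and Dct averaged 4997 CPM in control and 3219 CPM in Bmi1-deleted libraries. Of 10 markers of the melanocyte lineage, 9 had a log2 change below 0 (median −0.66), and their summed level ranged from 9600 to 15671 CPM in control and from 5472 to 11120 CPM in Bmi1-deleted libraries. Markers of other skin cell types were higher in parts of the Bmi1-deleted group, as given below. In bulk RNA, a change in the number of cells of a type and a change in RNA per cell cannot be told apart.

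Cdkn2a was the member that differed. It had 0 counts in each of the 4 control libraries and 85, 50, 38 and 46 counts in Bmi1-deleted replicates 1 to 4. In the Bmi1-deleted libraries this came to 9.38, 4.97, 4.23 and 5.22 CPM, a mean of 5.95 ± 2.33 CPM (SD, n = 4). A control count of 0 allows up to 3 counts, or 0.309 to 0.339 CPM, so the groups were far apart in each library. The mean was at least 18.5-fold higher than the mean of the control limits, and the lowest Bmi1-deleted library was at least 12.5-fold above the highest control limit; these limits cover counting error only. Cdkn2a rose in edgeR's quasi-likelihood test (adjusted p = 0.00736). With control counts of 0 it passed the count filter only through its Bmi1-deleted libraries, so filter and test are not independent for this gene. Genes called higher made up 0.0874% of those tested, 14 in number, and genes whose groups did not overlap made up 5.18%, with 2.79% higher and 2.39% lower in Bmi1-deleted libraries. Cdkn2a was called in all 8 fits that left out 1 library, with edgeR adjusted p from 0.0170 to 0.0476. It was called with replicates 1 and 2 alone (adjusted p = 0.00261) but not with replicates 3 and 4 alone (adjusted p = 0.0705), where each group had 2 libraries, and over all alternatives the adjusted p ran from 2.97e-10 to 0.0705.

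Cdkn2b, the nearest neighbour of Cdkn2a and a gene known to be induced by transforming growth factor beta, was low in both groups. The control libraries had 1, 28, 26 and 8 counts and the Bmi1-deleted libraries 29, 19, 12 and 0 counts. In CPM these were 0.106, 2.88, 2.78 and 0.905 in control and 3.20, 1.89, 1.33 and 0 in Bmi1-deleted libraries. The groups overlapped across nearly their whole range, with the lowest values in control replicate 1 and Bmi1-deleted replicate 4. The log2 change was −0.06 (SE 1.06, edgeR adjusted p = 0.994), and its 95% interval, from 0.197-fold to 4.70-fold, left room for changes of several fold in either direction.

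Cdkn2c, which encodes the inhibitor p18 and is known as a partner mainly of CDK6, was at 7.65, 5.66, 5.24 and 9.50 CPM in control and 9.38, 6.95, 7.01 and 8.39 CPM in Bmi1-deleted libraries. The means were 7.02 ± 1.96 and 7.93 ± 1.17 CPM (SD, n = 4). All 4 Bmi1-deleted values lay within the control range. The log2 change was 0.18 (SE 0.33, edgeR adjusted p = 0.949), with a 95% interval from 0.694-fold to 1.84-fold.

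Cdkn2d had the highest mean CPM of the family in both groups, but was below Cdkn2c in replicate 4 of each group. It was at 22.8, 16.8, 11.6 and 8.60 CPM in control and at 27.9, 25.6, 14.5 and 7.60 CPM in Bmi1-deleted libraries. In both groups replicates 1 and 2 were above replicates 3 and 4, and the groups overlapped. The log2 change was 0.34 (SE 0.41, edgeR adjusted p = 0.911), with a 95% interval from 0.681-fold to 2.35-fold. Of the 4 genes, 1 was called higher and 0 lower in edgeR; Cdkn2a was also the only member with an unadjusted p under 0.05 and the only member called by DESeq2. Genes called lower made up 0.00625% of those tested. DESeq2 called 0.766% of the genes it gave an adjusted p higher and 0.325% lower, and 8.27% of the tested genes had an unadjusted p under 0.05 in edgeR.

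**Figure D1:**
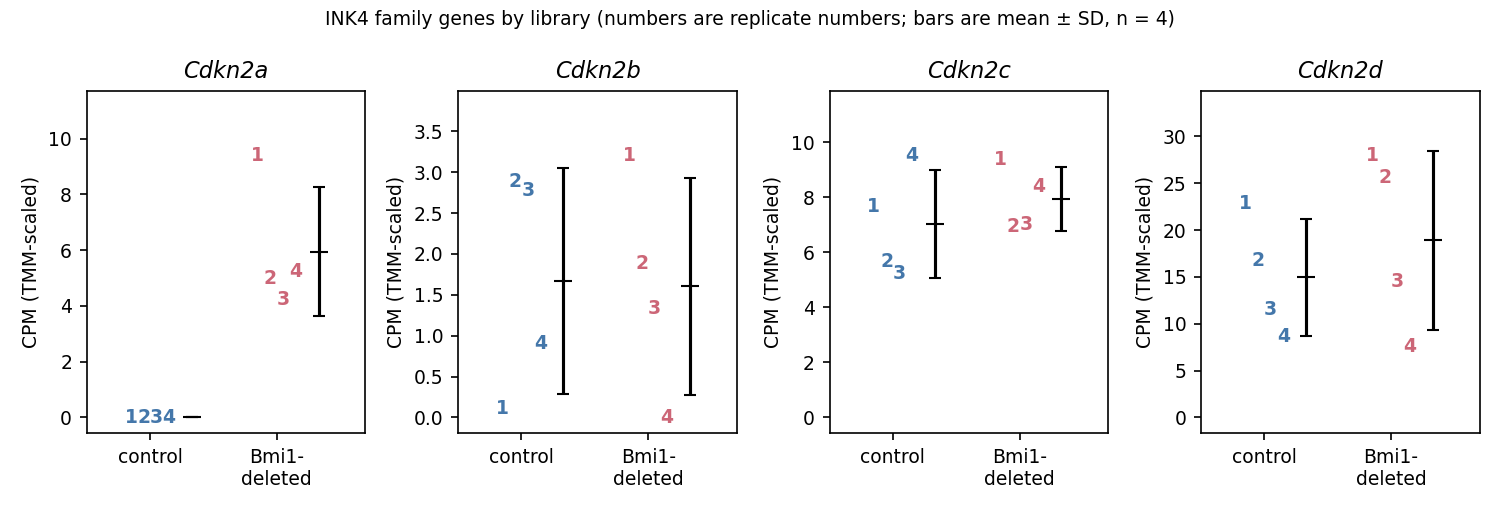
CPM (TMM-scaled, linear axes that differ between panels) of the 4 INK4 genes in each library; numbers are replicate numbers and bars are mean ± SD (n = 4 per group). The control values of Cdkn2a are all 0 and its Bmi1-deleted values run from 4.23 to 9.38, while the groups overlap for Cdkn2b, Cdkn2c and Cdkn2d.

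Levels of different genes were compared per transcript length, in TPM, a length-corrected relative abundance taken back from the deposited log2 values. Cdkn2d was the most abundant INK4 transcript in control libraries, at 7.32, 7.27, 2.53 and 1.77 TPM. Cdkn2c followed at 1.51, 1.93, 0.785 and 0.937 TPM, and Cdkn2b at 0.0304, 1.05, 0.626 and 0.170 TPM. The order Cdkn2d, Cdkn2c, Cdkn2b held in 4 of 4 control and 4 of 4 Bmi1-deleted libraries. In Bmi1-deleted libraries Cdkn2a, at 3.84, 2.01, 1.73 and 1.75 TPM, was above Cdkn2c and Cdkn2b in 4 of 4 and above Cdkn2d in 1 of 4, replicate 4; the ranges of Cdkn2a and Cdkn2d overlapped. Cdkn2c was there at 1.60, 0.871, 1.11 and 0.993 TPM, and Cdkn2d at 6.97, 6.31, 3.71 and 1.60 TPM.

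Cdkn2a thus took a share of the family's transcripts that had been 0 in control libraries. It held 29.2%, 20.9%, 25.2% and 40.4% of the summed TPM of the 4 genes in Bmi1-deleted replicates 1 to 4 (28.9% ± 8.34, SD, n = 4). Cdkn2d held 69.8% ± 9.42 in control libraries and 52.4% ± 11.9 in Bmi1-deleted ones, and Cdkn2c held 22.1% ± 7.09 and 15.1% ± 5.96. Cdkn2b held 8.10% ± 6.59 and 3.63% ± 2.49. The shares of these 3 genes must be lower where Cdkn2a is present, and they carry no test. Summed over the family, TPM came to 6.48 ± 3.62 in control and 8.49 ± 3.78 in Bmi1-deleted libraries, or 6.16 ± 2.93 in the latter without Cdkn2a. TPM are relative to a total of which the noncoding gene Gm23935 took 73.7% to 85.6%, so TPM set genes in order within a library. The TPM values above are given without a test of a group difference. TPM were tested between groups only as an alternative, on log2(TPM + 1) in limma, where this limit applies.

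**Figure D2:**
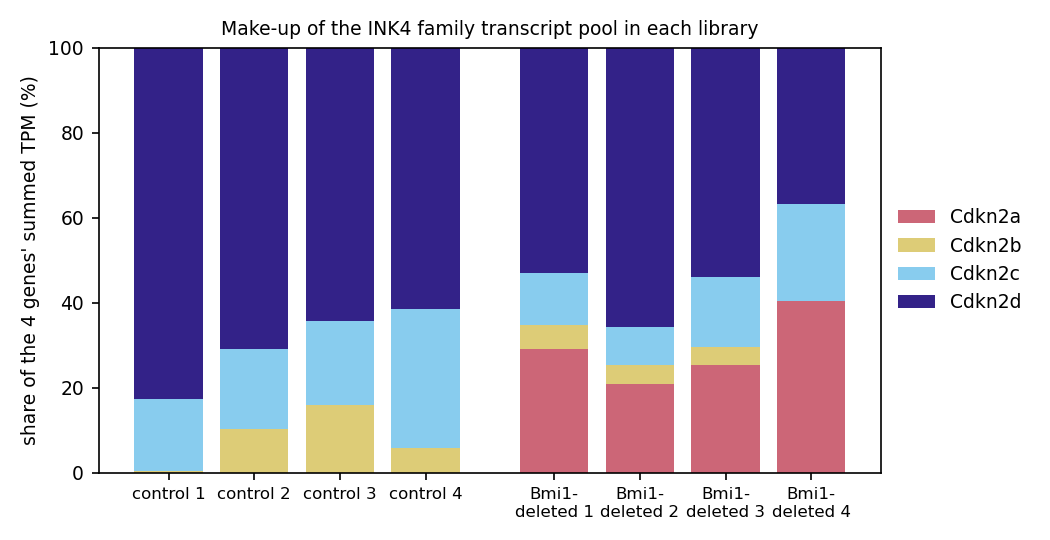
Share of the 4 INK4 genes' summed TPM (percent, stacked to 100) held by each gene in each of the 8 libraries. Cdkn2a is absent from the control bars and takes 20.9% to 40.4% of the Bmi1-deleted bars, and Cdkn2d is the largest part in each bar except Bmi1-deleted replicate 4.

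The 2 deposited tables together also showed how the quantification had divided each gene's counts among its transcripts, since counts divided by TPM depend on a gene's mean transcript length. This check was chosen after the data had been seen. Each library was calibrated on genes with a single transcript, and in 569 genes with 2 annotated transcripts the recovered length lay between the 2 known lengths, within 1 base, in 95.6% of gene and library pairs. For Cdkn2a the recovered mean length was 875, 857, 865 and 863 bases in Bmi1-deleted replicates 1 to 4, between the 852 bases of the Ink4a-start and the 895 bases of the Arf-start transcript. The Arf-start transcript accordingly had 53.01% of the Cdkn2a TPM in replicate 1, with a range of 43.8% to 62.2% from the rounding of counts alone. It had 11.2% in replicate 2 (0% to 26.6%), 29.7% in replicate 3 (9.29% to 50.2%) and 25.2% in replicate 4 (8.26% to 42.2%). Summed over the 4 libraries, about 76.3 counts were assigned to the Arf-start and 143 to the Ink4a-start transcript. In CPM the Ink4a-start transcript was at 4.26, 4.38, 2.91 and 3.84 in the 4 Bmi1-deleted libraries. The Arf-start transcript was at 5.12, 0.590, 1.31 and 1.38 CPM. The highest Cdkn2a level, in replicate 1, therefore went with a higher Arf-start part, while its Ink4a-start part lay within the range of the other libraries. These transcripts share their exons after the first, so only reads that touch a first exon tell them apart, and the division is an estimate by the authors' software from few reads.

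Cdkn2b has 1 annotated transcript, and the recovered length was 1390 bases, its own length, in each of the 6 libraries with at least 3 counts. For Cdkn2c the long transcript of 2471 bases had 60.0%, 26.7%, 64.9% and 100% of the TPM in control and 52.6%, 89.7%, 59.5% and 72.8% in Bmi1-deleted libraries, against a short transcript of 1106 bases that starts within the gene. The means, 62.9% and 68.6% (n = 4 each), differed by less than the SD of either group. Cdkn2d has 3 annotated transcripts, which a mean length cannot divide. Its mean length was 1264 bases, the length of a single transcript, in control replicate 1 and Bmi1-deleted replicates 3 and 4, and 1423 bases, the length of another, in control replicate 3. The estimates at this depth thus ran from all of one transcript to all of another within a group.

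**Figure D3:**
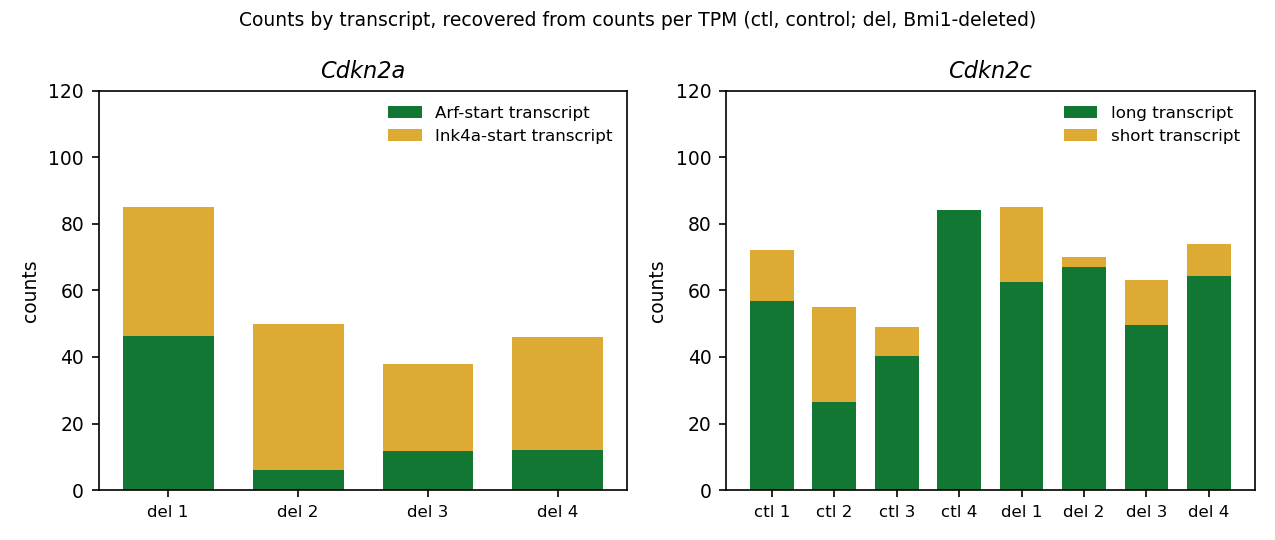
Counts of Cdkn2a (left, 4 Bmi1-deleted libraries) and Cdkn2c (right, all 8 libraries; ctl, control; del, Bmi1-deleted) divided between their 2 transcripts, as recovered from counts per TPM. Bar height is the gene's count; the Arf-start part of Cdkn2a is tallest in replicate 1, at 5.12 CPM against 0.590 to 1.38 CPM in the others.

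The genes around the INK4 genes were examined next, taking the 3 nearest protein-coding genes on each side of each member. Apart from the members themselves these were 18 genes, of which 9 were tested and 0 were called in edgeR, where genes called in either direction made up 0.0937% of those tested. None of the 9 had an unadjusted p under 0.05 or was called by DESeq2, which gave 1 of them, Ap1m2, no adjusted p. Mtap, the methylthioadenosine phosphorylase gene next to Cdkn2a, was at 15.2, 24.7, 18.4 and 27.0 CPM in control and 20.3, 18.3, 19.4 and 12.0 CPM in Bmi1-deleted libraries, and the groups overlapped (log2 change −0.29, edgeR adjusted p = 0.848). On the other side, beyond Cdkn2b, Dmrta1 had 1 count in control replicate 1, 12 counts in Bmi1-deleted replicate 1 and 0 elsewhere, too few to test. The interferon genes Ifna1 and Ifne had 0 counts in all 8 libraries. At Cdkn2c, the next genes Faf1 and Rnf11 had log2 changes of −0.10 and −0.19. At Cdkn2d, Kri1, Atg4d and Slc44a2 had log2 changes of −0.12, 0.24 and 0.12. None of these 5 had groups that did not overlap.

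The direct targets of INK4 proteins did not pass the test. Among the kinase genes, Cdk4 averaged 52.1 CPM in control and 42.1 CPM in Bmi1-deleted libraries (log2 change −0.31, edgeR adjusted p = 0.677), and Cdk6 averaged 61.3 and 62.1 CPM. Among the D-type cyclins, Ccnd1 averaged 74.8 and 92.0 CPM (log2 change 0.30, edgeR adjusted p = 0.639). Ccnd2 averaged 190 and 173 CPM, and Ccnd3 134 and 144 CPM. All 5 genes overlapped between groups, with 0 called in edgeR or DESeq2 and 0 at an unadjusted p under 0.05. Their median log2 change was 0.02, against 0.01 for all genes. The kinases and cyclins that INK4 proteins act on were thus present in both groups.

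Downstream of these kinases, 13 pocket protein, E2F and partner genes were tested, with 0 called in edgeR and 0 in DESeq2. Of the 13, 2 had an unadjusted p under 0.05 in edgeR, against 8.27% of all tested genes. The median log2 change of the 13 was −0.21. The pocket protein gene Rbl2, which encodes p130, was at 175, 181, 167 and 164 CPM in control and 96.3, 108, 145 and 136 CPM in Bmi1-deleted libraries, and the groups did not overlap. Its log2 change of −0.50 did not pass in edgeR (adjusted p = 0.257) and passed with the replicate number as a block (adjusted p = 0.0332). It was −0.80 with replicates 1 and 2 alone, −0.25 with replicates 3 and 4 alone and −0.33 with a fibroblast marker score, described below, as a covariate. Rb1, the retinoblastoma gene, averaged 57.9 and 59.0 CPM, and Tfdp1, which encodes the E2F partner DP1, averaged 54.1 and 44.8 CPM.

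Of 25 S-phase genes that E2F is known to drive, 0 were called in edgeR and 0 in DESeq2. Their log2 changes were below 0 in 24 of 25, with a median of −0.39, and 5 had an unadjusted p under 0.05, against 49.3% of all tested genes below 0 and 8.27% at that p. Their summed level was 554, 630, 703 and 1090 CPM in control and 464, 439, 688 and 612 CPM in Bmi1-deleted libraries, so the groups overlapped and control replicate 4 was the highest. The list's median stayed below 0 in each of the 18 alternatives, from −0.71 to −0.16, and was −0.17 with the fibroblast score as a covariate. The replication clamp gene Pcna averaged 67.8 and 56.8 CPM and the proliferation marker Mki67 67.7 and 53.9 CPM. Cdk2, the kinase of S-phase entry, averaged 165 ± 45.0 CPM in control and 107 ± 48.5 CPM in Bmi1-deleted libraries (SD, n = 4). Its log2 change of −0.62 did not pass in edgeR (adjusted p = 0.689) and passed with the replicate number as a block (adjusted p = 0.00458). With the fibroblast score as a covariate it was 0.04 (adjusted p = 0.950), the opposite sign. Cdk2 overlaps the melanosome gene Pmel on the opposite strand, which averaged 542 CPM, and the labels and processing notes do not say whether strand was used in counting, so reads of Pmel in the Cdk2 value were not tested.

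The other product of Cdkn2a acts through MDM2 and p53, and 22 genes of that arm were tested. Of these, 0 were called in edgeR, 1 in DESeq2 and 3 had an unadjusted p under 0.05 in edgeR. Over all tested genes 8.27% had such a p, and DESeq2 called 0.766% of the genes it gave an adjusted p higher. Log2 changes were above 0 in 17 of 22, with a median of 0.11, against 50.7% of all tested genes above 0. The gene called by DESeq2 was Cdkn1a, which encodes the p53-induced inhibitor p21. It was at 125, 112, 130 and 114 CPM in control and 155, 182, 155 and 190 CPM in Bmi1-deleted libraries, and the groups did not overlap. Its log2 change of 0.50 did not pass in edgeR (adjusted p = 0.144) and passed with the replicate number as a block (adjusted p = 0.0268). Npm1, which encodes the nucleolar partner of ARF, averaged 333 and 279 CPM, and the p53 target Btg2 averaged 199 and 229 CPM.

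**Figure D4:**
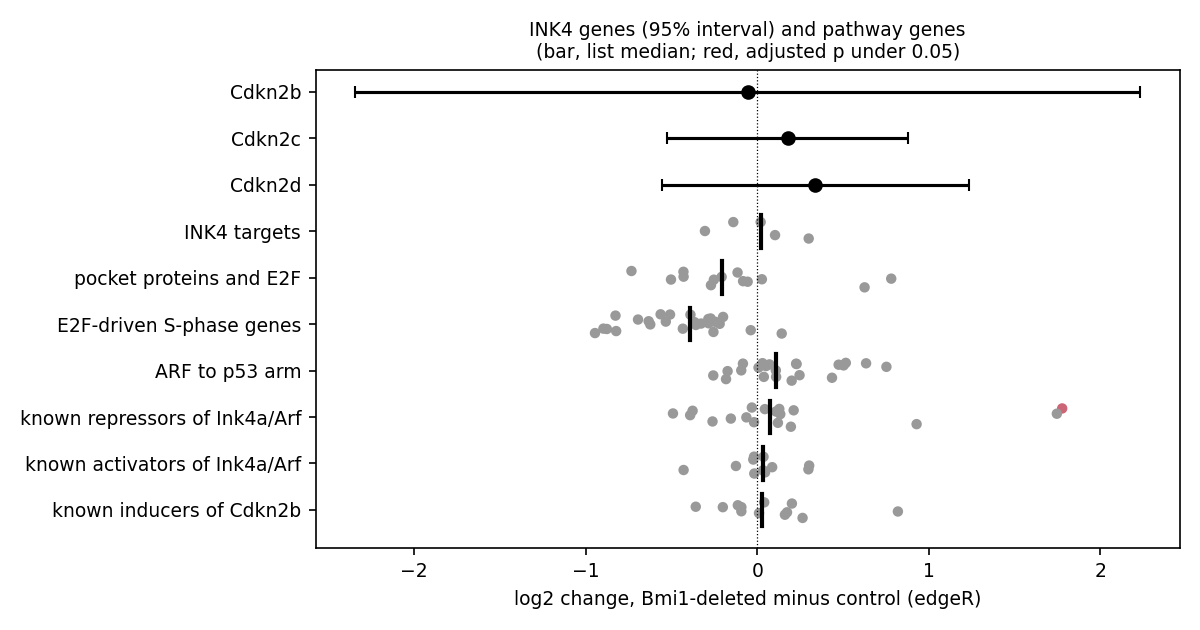
Log2 change, Bmi1-deleted minus control (edgeR), of Cdkn2b, Cdkn2c and Cdkn2d with 95% intervals, and of each tested gene of the 7 pathway lists (points; bars are list medians). Cdkn2a is not drawn because its control counts are all 0; the only point called, in red, is Tbx3, and 24 of the 25 S-phase genes lie below 0.

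Among 18 genes known to repress Ink4a/Arf, 1 was called higher and 0 lower in edgeR, and the median log2 change was 0.08. Of the 18, 5 had an unadjusted p under 0.05 in edgeR, against 8.27% of all tested genes. Groups did not overlap for 2 with Bmi1-deleted libraries higher and for 4 with them lower, against 2.79% and 2.39% of all tested genes. The gene that rose was Tbx3, a T-box transcription factor known to repress the Arf promoter. Tbx3 was at 15.0, 19.9, 29.5 and 13.5 CPM in control and 62.0, 62.7, 57.3 and 85.2 CPM in Bmi1-deleted libraries. The groups were well apart, and the log2 change was 1.78 (SE 0.24, edgeR adjusted p = 0.00822). Tbx3 did not pass without control replicate 2 (adjusted p = 0.0619), with replicates 3 and 4 alone (adjusted p = 0.105) or on log2(TPM + 1) in limma (adjusted p = 0.606). Cbx8, another Polycomb subunit, named here after its values were seen, averaged 9.10 ± 0.859 CPM in control and 17.3 ± 1.73 CPM in Bmi1-deleted libraries (SD, n = 4); it passed in DESeq2 and not in edgeR (adjusted p = 0.166). The 4 genes lower without overlap were Bmi1 itself, the Polycomb subunits Rnf2 (log2 change −0.38) and Suz12 (−0.39) and the T-box repressor Tbx2 (−0.49). The last 3, also named after their values were seen, did not pass in edgeR (adjusted p = 0.444, 0.428 and 0.435). The most abundant repressors were Zbtb7a, a zinc finger repressor of Arf, at 164 and 170 CPM, the Polycomb methyltransferase gene Ezh2 at 107 and 117 CPM, and Phc2, a Polycomb subunit, at 110 and 106 CPM. None of these 3 passed.

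Among 11 known activators of Ink4a/Arf, 0 were called in edgeR and 0 in DESeq2, with a median log2 change of 0.03. Of the 11, 1 had an unadjusted p under 0.05 in edgeR, against 8.27% of all tested genes. That gene was Kdm6b, a demethylase of the Polycomb histone mark, at 628, 544, 644 and 528 CPM in control and 734, 655, 669 and 824 CPM in Bmi1-deleted libraries. Its groups did not overlap, but the log2 change of 0.30 did not pass in edgeR (adjusted p = 0.555). The transcription factor genes Junb (550 and 563 CPM) and Ets1 (485 and 479 CPM) did not pass either. Among 12 known inducers of Cdkn2b in the TGF-beta and FOXO pathways, 0 were called in edgeR and 0 in DESeq2, with a median of 0.03. Of the 12, 1 had an unadjusted p under 0.05 in edgeR, near the share of 8.27% over all tested genes. Foxo3 averaged 192 and 193 CPM, Sp1 192 and 167 CPM, and the receptor gene Tgfbr2 115 and 130 CPM. Groups did not overlap for 1 of the 12 with Bmi1-deleted libraries higher and for 1, Sp1, with them lower. Over all tested genes, 5.18% had groups that did not overlap, 2.79% higher and 2.39% lower.

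The genes whose log2 CPM most resembled each member's over the 8 libraries are given as a description, with Pearson's r and no test. For Cdkn2a, whose pattern is mainly the difference between groups, they were Tbx15 (r = 0.98), Oaf (0.98) and Hoxd8 (0.97). For Cdkn2b they were Zfp965 (0.98), Pak3 (0.97) and Phkb (0.97). For Cdkn2c they were Spred2 (0.96), Cfl1 (0.96) and Smyd5 (0.93), and for Cdkn2d they were Spop (0.98), Zfp111 (0.98) and Psmd8 (0.97). They were picked as the highest correlations among 16011 tested genes over 8 libraries that share groups and depth.

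Fibroblast marker levels differed between libraries, and of Cdkn2b, Cdkn2c and Cdkn2d the last had the highest correlation with them. Of 14 tested fibroblast markers, 13 had a log2 change above 0 (median 0.96, with 0 called in edgeR and 10 at an unadjusted p under 0.05). No marker was at 0 in all libraries. The summed level of all 15 listed markers was 5265 to 9130 CPM in control and 8963 to 18968 CPM in Bmi1-deleted libraries. A fibroblast score, the mean log2 CPM of the 14 tested markers, was 6.35, 6.24, 5.72 and 5.74 in control and 7.64, 7.31, 6.67 and 5.82 in Bmi1-deleted libraries. The score was above each control value in Bmi1-deleted replicates 1 to 3 and inside the control range in replicate 4. Score and group thus largely went together. With the score as a covariate Cdkn2a passed in edgeR (adjusted p = 0.00695). That fit cannot decide on cell make-up, because score and group went together and the control counts of Cdkn2a were all 0. Whether cell make-up had a part in the Cdkn2a level was not tested. Over the 8 libraries Cdkn2d and the score gave r = 0.86 (exact permutation p = 0.0078, adjusted over 3 genes 0.0234) and rho = 0.83 (exact permutation p = 0.0154, adjusted 0.0461). Without the 2 libraries farthest from the median score r was 0.72 (n = 6). With the score as a covariate the log2 change of Cdkn2d was −0.76 (unadjusted p = 0.0169, edgeR adjusted p = 0.373), the opposite sign to that without it. For Cdkn2b r was 0.41 (exact permutation p = 0.312, adjusted 0.468) and rho 0.33 (exact p = 0.428, adjusted 0.642), and for Cdkn2c r was 0.23 (exact permutation p = 0.569, adjusted 0.569) and rho 0.17 (exact p = 0.703, adjusted 0.703). These 3 relations were chosen after the values had been seen. The permutation treats the libraries as exchangeable, but replicates 1 and 2 stood apart from 3 and 4 along the leading axis of variation (27.2% of it), and in both groups replicates 1 and 2 were higher in the score and in Cdkn2d. Within the 4 libraries of replicates 1 and 2 Cdkn2d had the order of the score, and within the 4 of replicates 3 and 4 it did not; no r is given over fewer than 6 libraries. The relation thus did not hold within both sets.

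**Figure D5:**
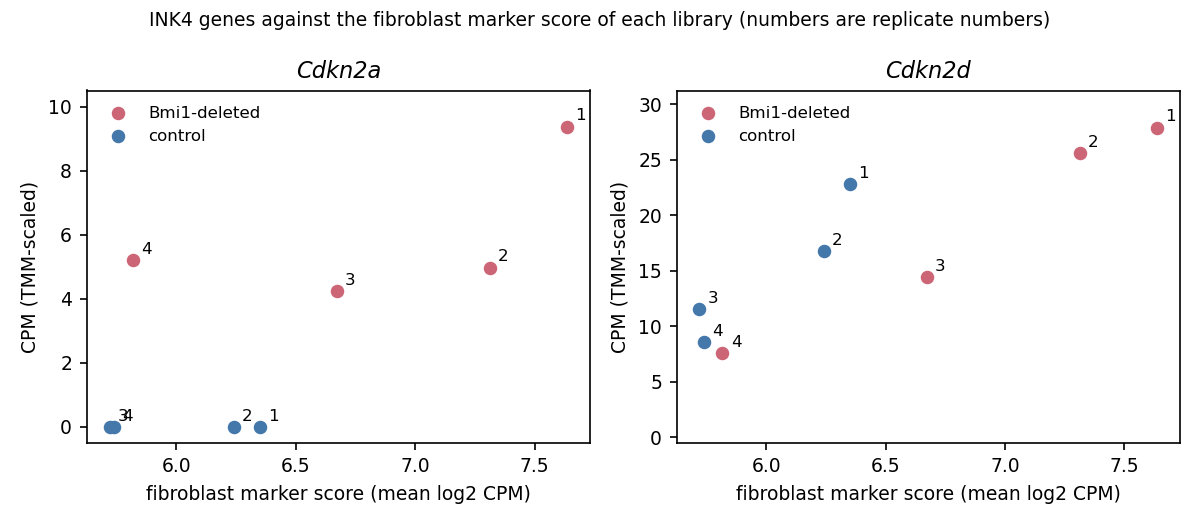
CPM (TMM-scaled) of Cdkn2a (left) and Cdkn2d (right) against the fibroblast marker score (mean log2 CPM of 14 markers) in each of the 8 libraries; numbers are replicate numbers. Cdkn2a is at 0 in the control libraries and at 4.23 to 9.38 in the Bmi1-deleted ones, while Cdkn2d has r = 0.86 with the score over the 8 libraries.

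Markers of other cell types are given for the same comparison, and their part in the INK4 values was not tested. Of 8 Schwann cell markers, 8 had a log2 change above 0 (median 0.43), and their sum was 2108 to 3841 CPM in control and 3783 to 5139 CPM in Bmi1-deleted libraries. For 8 basal keratinocyte markers the median was 0.09, with sums of 2361 to 2806 and 2308 to 4176 CPM. For 6 suprabasal keratinocyte markers the median was 1.04, with sums of 168 to 301 and 151 to 747 CPM. The sums of 8 immune markers were 37.5 to 57.7 and 53.9 to 102 CPM, with a median of 0.57 over the 5 tested. Those of 6 endothelial markers were 15.4 to 35.2 and 22.7 to 89.0 CPM, with a median of 0.72 over the 5 tested. Those of 5 mural cell markers were 33.3 to 58.7 and 37.1 to 167 CPM, with a median of 1.44 over the 4 tested. These sums overlapped between groups for each of these cell types, as did that of the fibroblast markers.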

How the data were processed

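The members and gene lists were chosen with earlier results of these data known. RNA from sorted cells was made into libraries with a stranded total RNA kit and PCR, per the labels; no molecular identifiers are mentioned, so counts include PCR copies. The authors deposited counts per gene as whole numbers, quantified with Salmon 1.2.1 against mm10 per the submitters' processing notes, and log2(TPM + 1) values. The annotation, strand setting and rounding step were not given in those sources. Symbols and positions came from GENCODE M21 (54096 of 54418 identifiers) and promoter windows from RefSeq GRCm38.p6.

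Counts were filtered by group (filterByExpr), scaled by TMM and tested with edgeR 4.0.16 (quasi-likelihood, robust, two-sided, R 4.3.3), with Benjamini-Hochberg adjustment over all tested genes; the code was tested on simulated data. DESeq2 1.42.0 and limma 3.58.1 on the deposited log2 values were alternatives, as were other scaling and filters, left-out libraries, covariates and the replicate number as a block. Same-numbered libraries correlated at 0.124 to 0.186 in their deviations from the group means, but only 4 of 8 matched best with their own number. The labels do not say that the numbers pair libraries, so the main fit had no block. The block was an alternative, and its calls are given beside those of the main fit. The numbers come from the sample titles. Levels are CPM with the SD over 4 libraries, and a count of 0 was given a limit of 3 counts. Intervals of log2 changes are 95% intervals.

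Named genes were the members, Bmi1, genes of each list that passed, the 3 most abundant of each list (all 5 INK4 targets), the 3 nearest genes on each side and the 3 most similar genes per member; 1 neighbouring gene is not reported here. Rbl2, Cdk2, Cdkn1a, Cbx8 and Kdm6b are named also for calls or groups that differed, seen in the data. Mean transcript length was solved from counts per TPM, calibrated in each library on 156 to 193 genes with a single transcript, of which 82.7% to 88.8% were recovered within 1 base.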

Additional observations from a re-analysis of the deposited data

Results flagged for a closer look

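The TPM of Cdkn2a in Bmi1-deleted replicate 1 stood apart from the other Bmi1-deleted libraries. It was 3.84 TPM, against 1.73, 1.75 and 2.01 TPM in the others, and the gap to its neighbour was 0.868 of the group's whole range, above Dixon's 95% critical value for 4 samples. In CPM, the scale used for comparisons between libraries, the gap was 0.808 of the range and below that value. Chance flags about 1 in 20 groups, and 14 groups of 4 values were examined.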

How the results depend on the processing

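Cdkn2b had 0 to 29 counts per library and an SE of 1.06 on the log2 scale. Cdkn2a kept its direction in each alternative and passed in all but replicates 3 and 4 alone (log2 change 8.41, edgeR adjusted p = 0.0705); fitted changes of this gene depend on the prior count and are no bound, and leaving out 1 library gave 8.49 to 8.92. Cdkn2b, which passed in no alternative, changed sign with replicates 1 and 2 alone (0.76) and in 4 of the 8 fits that left out a library, which ranged from −0.62 to 0.36 (0.36 without control 2, 0.30 without control 3, 0.02 without Bmi1-deleted 3, 0.35 without Bmi1-deleted 4). It was −2.41 with the fibroblast score as a covariate and −1.45 with replicates 3 and 4 alone. Cdkn2c changed sign on log2(TPM + 1) (−0.078; there the median of all genes was −0.14) and Cdkn2d with the fibroblast score (−0.76), and neither passed in any alternative. The cause was not tested. A filter of 10 CPM in 4 libraries left only Cdkn2d to test.

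Genes called higher numbered 14 in the edgeR test, 113 with DESeq2, 259 without a count filter, 3 on log2(TPM + 1), 116 with replicates 1 and 2 alone, 23 with replicates 3 and 4 alone and 8 to 40 without 1 library. Genes called lower numbered 1, then 3 with DESeq2's size factors, 48 with DESeq2, 121 without a count filter, 2 with the filter of 10 CPM, 5 with the fibroblast score, 87 with replicates 1 and 2 alone, 6 with replicates 3 and 4 alone and 0 to 5 without 1 library. With the replicate number as a block, 273 genes were called higher and 113 lower; Cdkn2a passed (adjusted p = 0.00139) and among the named genes no call changed other than those of Rbl2, Cdk2 and Cdkn1a.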
